A study of Mus musculus with 6 samples.

Results

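Semaphorins, plexins and neuropilins were compared between motor neurons (MNs) derived from mouse embryonic stem cells (mESCs) of a spinal muscular atrophy (SMA) line and of a control line. The members were chosen by symbol alone, as semaphorins of classes 3 to 7, plexins A to D, and neuropilins. Expression values were no part of this rule, though earlier results of these data were known when the family was picked. They were 31 of the 34433 gene symbols in the deposited table, made up of 20 semaphorins, 9 plexins and 2 neuropilins.

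Semaphorins are secreted or membrane-bound proteins that steer growing axons, mostly by repulsion, and they also act in vessels, bone and the immune system. Plexins are their transmembrane receptors, which carry an intracellular GTPase-activating domain, and neuropilins are co-receptors that let most secreted class 3 semaphorins act through A plexins and that also bind VEGF. In the spinal cord these proteins are known for sorting motor axons as they leave the cord and enter the limb.

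The study asked how MNs lacking mouse Smn differ from control MNs in their RNA. Hb9 control mESCs are labelled wildtype, A2 SMA mESCs have the genotype SMN2+/+;mSmn-/-, and both lines are of the FVB/N strain and carry the human SMN2 transgene together with an eGFP reporter driven by the Hb9 (Mnx1) promoter. Embryoid bodies of both lines were treated for 5 days with 1 µM retinoic acid and 1 µM Smoothened agonist, and living GFP-positive cells were sorted, so that any GFP-positive cell could enter a sample. There were 3 samples of each genotype, but the authors' table holds 1 pooled FPKM value per gene and genotype, so no difference below has a replicate check, and none was tested. The results of the authors' own test in that table were not used. Each genotype was 1 mESC line, so genotype and cell line cannot be told apart.

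Reads behind single values are not given in the table, and the precision of each value is therefore unknown. Of all genes, 15216 passed a filter of a mean of at least 1 FPKM over both genotypes and a value above 0 in each. Their median log2 ratio of A2 SMA over Hb9 control FPKM was -0.28, which means that more genes were lower than higher in A2 SMA MNs before any member was looked at. Smn1, the deleted gene, was 137 FPKM in control cells and 5.26 FPKM in SMA cells. Mnx1, whose promoter drives the reporter used for sorting, was 41.2 and 44.2 FPKM. The cell type markers differed between the samples: all 7 neuronal markers in the table were at least 2-fold lower in A2 SMA MNs, with a summed level of 1048 FPKM in Hb9 control MNs against 121 FPKM. All 8 pluripotency markers were at least 2-fold higher, with sums of 223 and 1488 FPKM. Of the motor neuron markers, 4 of the 5 that passed the filter were at least 4-fold lower, the other being Mnx1, and Lhx3 and Chat were at 0.348 and 0.344 FPKM in A2 SMA MNs, so defining markers of the labelled cell type were near absent there. None of these markers was at 0. Of the neural progenitor markers, 4 of 5 were at least 2-fold lower (sums of 739 and 35.0 FPKM), and of the fibroblast markers 5 of 7 (67.8 and 33.4 FPKM), though only 2 of 7 when centred on the median gene or after upper quartile scaling. Without markers above 1 FPKM in Hb9 control MNs alone, whose direction the filter fixed, the counts at least 2-fold lower were 6 of 6 for neurons, 2 of 3 for motor neurons, 2 of 3 for neural progenitors and 3 of 5 for fibroblasts. In such bulk samples, fewer cells of a type and less RNA per cell cannot be told apart, and the part of cell composition in any value below was not tested.

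To show the sequences at the start sites of members at the ends of the range, windows of 300 bases (250 before to 50 after the annotated start) were read from RefSeq for the semaphorin with the lowest ratio, for Plxnc1, the receptor with the lowest ratio (without a pseudocount) among those with an entry, and for the single member at least 2-fold higher in A2 SMA MNs. Capitals mark the GC box GGGCGG on either strand and the E-box CANNTG, whose CACGTG form is counted within it. The windows lie in GRCm38.p6 at chr16:35541112-35541411 (plus strand) for Sema5b, chr10:94944796-94945095 (minus strand) for Plxnc1 and chr5:14025026-14025325 (plus strand) for Sema3e.
Sema5b: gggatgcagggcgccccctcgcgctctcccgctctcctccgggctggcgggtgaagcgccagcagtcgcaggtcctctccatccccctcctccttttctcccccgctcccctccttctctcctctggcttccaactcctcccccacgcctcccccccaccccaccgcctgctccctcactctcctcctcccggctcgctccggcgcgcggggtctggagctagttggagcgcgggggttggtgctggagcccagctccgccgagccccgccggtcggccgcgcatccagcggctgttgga
Plxnc1: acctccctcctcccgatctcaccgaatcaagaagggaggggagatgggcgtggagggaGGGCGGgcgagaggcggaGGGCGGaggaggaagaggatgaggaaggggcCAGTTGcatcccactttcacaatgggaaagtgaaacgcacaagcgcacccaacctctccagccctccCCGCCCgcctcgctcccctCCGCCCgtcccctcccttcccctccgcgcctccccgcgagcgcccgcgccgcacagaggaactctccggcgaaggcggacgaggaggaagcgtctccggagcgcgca
Sema3e: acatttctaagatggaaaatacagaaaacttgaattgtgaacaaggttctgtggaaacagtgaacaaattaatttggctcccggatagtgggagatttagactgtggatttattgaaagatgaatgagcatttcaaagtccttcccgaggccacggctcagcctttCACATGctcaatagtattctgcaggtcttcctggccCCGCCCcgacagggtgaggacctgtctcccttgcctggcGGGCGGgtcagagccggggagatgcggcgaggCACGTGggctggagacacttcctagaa
The Sema5b window held no GC box and no E-box at a GC content of 73.0%. The Plxnc1 window held 4 GC boxes and 1 E-box at 69.0% GC. The Sema3e window held 2 GC boxes and 2 E-boxes, 1 of them CACGTG, at 50.7% GC.

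RefSeq start windows were found for 26 of the 31 members, 37 windows in all, and the members without an entry were Plxna1, Plxna4, Sema3b, Sema3f and Sema6a. The GC box occurred in 27 of the 37 windows (73.0%), against 62.2% of 12447 windows of genes that passed the filter and 35.7% of all 32851 windows. It occurred in 14 of 19 windows (73.7%) of members at least 2-fold lower in A2 SMA MNs and in 12 of 16 windows (75%) of the other members that passed the filter, with no test of the difference. The E-box was in 9 of 19 (47.4%) and 10 of 16 (62.5%) of these windows, and in 56.8% of the members' windows, against 64.0% of those of the genes that passed. Neither TATAAA nor TAATTA, searched on both strands, was found in the members' windows, whereas 7.25% and 2.66% of windows of the genes that passed held them. A match to such letters is a description and not a binding site.

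Most of the family was lower in A2 SMA MNs. Of the 31 members, 29 passed the filter, and 24 of these were lower and 5 were higher, beside a background of 66.1% of all genes that were lower. At least 2-fold lower were 18 members (62.1%), where the background was 21.1% of all genes. At least 4-fold lower were 11, where it was 8.18%. With a pseudocount of 1 FPKM the 4-fold count was 7, for which no share of all genes was computed. Only 1 member was at least 2-fold higher (3.45%), beside 6.14% of all genes. The median log2 ratio of the members was -1.47, against -0.28 over all genes. Counted relative to the median gene, 17 members were at least 2-fold lower, against 15.6% of all genes, and 1 was higher, against 9.53%. The members that did not pass, Plxnb3 and Sema3g, were under 1 FPKM in both genotypes. Another 4 members (Sema3a, Sema3d, Plxna4 and Plxnc1) were above 1 FPKM only in Hb9 control MNs and passed through that value, and no member passed through A2 SMA MNs alone. A lower ratio was built into these 4 by the filter. Without them, 14 of 25 members were at least 2-fold lower. No share of all genes was computed without such genes, so 21.1% is not matched to this count or to others of this kind.

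**Figure D1:**
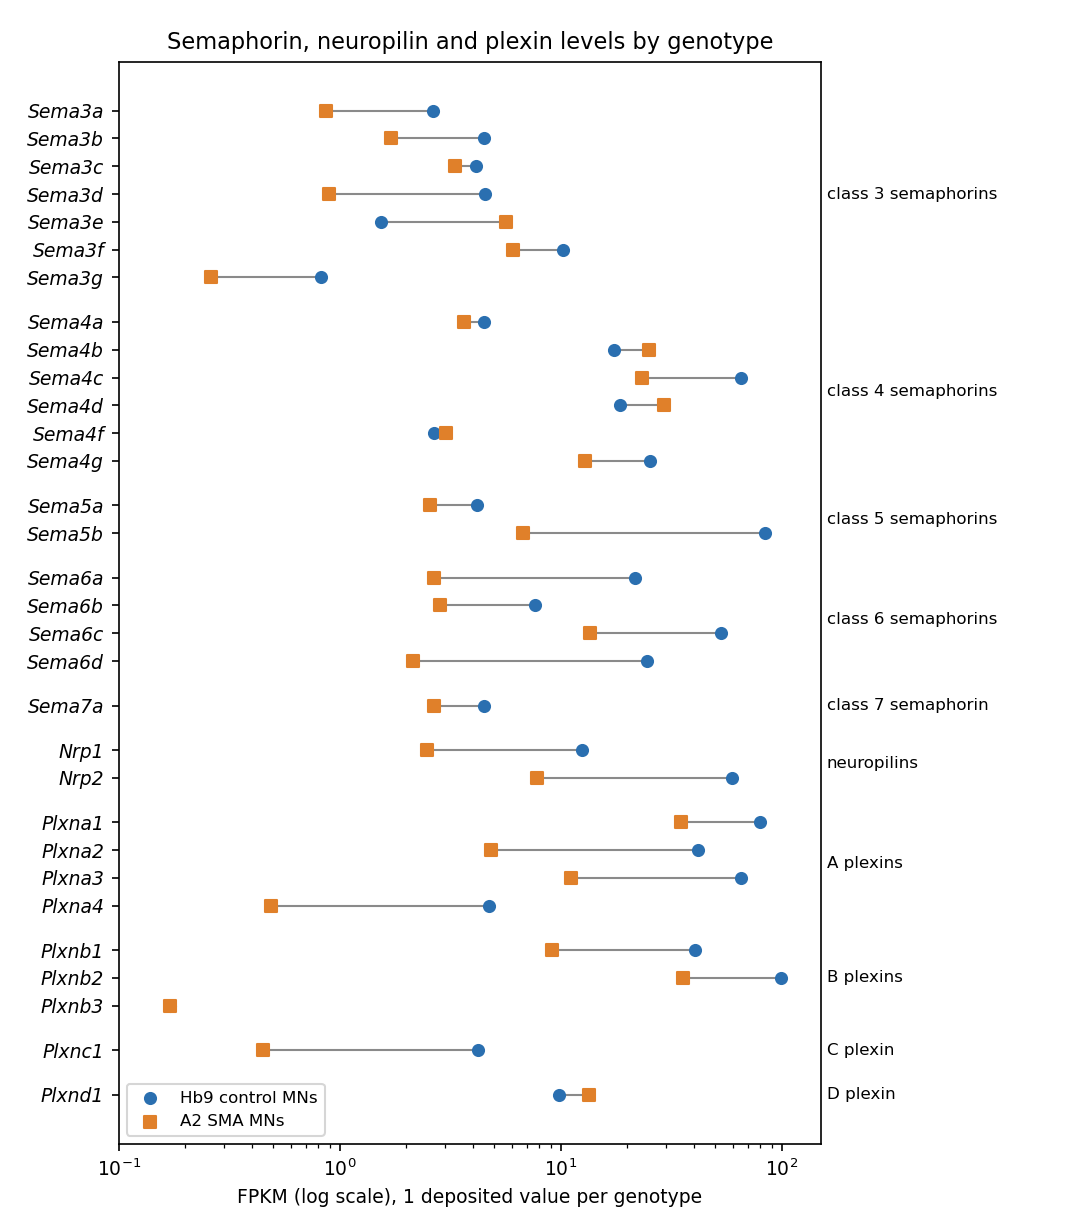
FPKM of the 31 members on a log axis, 1 value per gene and genotype with no error, with circles for Hb9 control MNs and squares for A2 SMA MNs joined by a line. The circle lies right of the square for most genes, the longest lines belong to Sema5b, Sema6d and Plxna4, and Sema3e (1.53 against 5.66 FPKM) has the longest line in the other direction.

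Receptors stood lower than ligands when each family was taken as a whole. Among plexins 7 of the 8 that passed the filter were at least 2-fold lower in A2 SMA MNs, with a median log2 ratio of -2.35, and both neuropilins were. Among semaphorins 9 of 19 were at least 2-fold lower, with a median of -0.97. Without the members that passed only through Hb9 control MNs, the counts were 5 of 6 plexins and 7 of 17 semaphorins, with medians of -1.81 and -0.75. The matching share of all genes was not computed. The summed level went from 345 to 110 FPKM for plexins (3.13-fold lower), from 72.0 to 10.3 FPKM for neuropilins (6.99-fold lower) and from 361 to 149 FPKM for semaphorins (2.43-fold lower). This order of the sums describes 1 pair of values per family and was not tested.

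Class 3 semaphorins, the secreted class, were low in both genotypes. They summed to 28.4 FPKM in the control line and 18.8 FPKM in the SMA line. Of the 6 that passed the filter, 5 were lower and 1 higher in A2 SMA MNs, beside 66.1% of all genes that were lower. At least 2-fold lower were 3, beside 21.1% of all genes, and 1 was at least 2-fold higher, beside 6.14%. Sema3a, the prototype growth cone repellent that acts through Nrp1, was 2.64 FPKM in Hb9 control and 0.867 FPKM in A2 SMA MNs (log2 ratio -1.60). Sema3d was 4.55 and 0.894 FPKM (-2.35), the lowest ratio of the class. With a pseudocount of 1 FPKM its ratio was -1.55, no longer 4-fold. Sema3b was 4.50 and 1.70 FPKM (-1.40). These 3 were the class 3 members at least 2-fold lower. Without Sema3a and Sema3d, which passed only through Hb9 control MNs, 3 of 4 were lower and 1 of 4 at least 2-fold lower. Sema3f, which repels axons through Nrp2 and Plxna3, had the highest level of the class, with 10.2 and 6.04 FPKM (-0.75). Sema3c, a ligand of both neuropilins and of Plxnd1 that acts in the heart outflow tract, was 4.14 and 3.32 FPKM (-0.32), and its direction depended on scaling, since it was 0.02 after upper quartile scaling. Sema3g stayed at 0.823 and 0.262 FPKM, below the filter.

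Sema3e went the other way. It binds Plxnd1 directly, with no need for a neuropilin, and guides vessels as well as axons. Its level of 1.53 FPKM in the control line stood against 5.66 FPKM in the SMA line, 3.70-fold higher (log2 ratio 1.89), and 98.2% of all genes that passed the filter had a lower ratio. Its rank among the 20 semaphorins went from 19 to 8. Both values are low, and the mean of the pair was under 5 FPKM.

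Sema3d, Sema3a, Sema3e and Sema3c lie in this order on chromosome 5 (NCBI m37, the build of the table), from Sema3d at 12383165 to 12588943 to Sema3c at 17080084 to 17236086. Sema3e (14025275 to 14256726) starts 423 kb after the end of Sema3a (13125592 to 13602643), and the listed values of these neighbours differ in direction, which the filter fixed for Sema3a and Sema3d. In the 2.82 Mb between Sema3e and Sema3c, the other genes that passed the filter were Pclo, a presynaptic scaffold gene, at 2.38 and 0.352 FPKM (log2 ratio -2.75), the calcium channel subunit gene Cacna2d1 at 23.0 and 4.35 FPKM (-2.40), and the gene model Gm6673 at 0.817 and 3.73 FPKM (2.19). The filter also fixed the direction of Pclo and of Gm6673, each above 1 FPKM in 1 genotype alone. They were looked up after the values of the semaphorins were seen.

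Class 4 semaphorins are transmembrane proteins best known from the immune system and as ligands of B plexins, and they were the class nearest to the median gene. Of 6 members, 3 were lower and 3 higher in A2 SMA MNs, and the class median of -0.055 changed sign under every scaling tried (0.22 centred on the median gene, 0.28 after upper quartile scaling and 0.09 on reference genes). Sema4c, a ligand of Plxnb2, was 65.4 FPKM in Hb9 control and 23.2 FPKM in A2 SMA MNs (log2 ratio -1.49), in a row that the authors' software marked FAIL. Sema4g, which also binds Plxnb2, was 25.3 and 12.9 FPKM (-0.97), just under 2-fold lower. Sema4c was thus the one member of the class at least 2-fold apart. Sema4d, the ligand of Plxnb1, was 18.6 and 29.2 FPKM (0.65). Sema4b, which binds a postsynaptic scaffold protein, was 17.4 and 24.97 FPKM (0.52). Every scaling tried raised the ratios, so both had to stay higher, and neither reached 2-fold. Sema4d is also known as an immune cell protein, and of 6 leukocyte markers 1 passed the filter (Cd68 at 16.6 and 23.0 FPKM), with sums of 17.8 and 24.8 FPKM that were almost all Cd68. The other 5 were under 1 FPKM in both genotypes and differed in direction, with Ptprc, the defining leukocyte marker, at 0.0173 and 0.0156 FPKM, and Lyz2 at 0 and 0.0367 FPKM. Their part in the value of Sema4d was not tested. Sema4f was 2.67 and 3.04 FPKM (0.19). Sema4a was 4.48 and 3.65 FPKM (-0.30), and after upper quartile scaling its ratio was 0.04.

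The transmembrane classes 5 and 6 held the semaphorins with the lowest ratios, and 5 of their 6 members were at least 2-fold lower. Sema5b, a class 5 protein with thrombospondin repeats, was 83.7 FPKM in Hb9 control MNs, the highest level of any semaphorin there, and 6.74 FPKM in A2 SMA MNs (12.4-fold lower, log2 ratio -3.63). Only 2.33% of all genes that passed the filter had a lower ratio. The gene model Gm5963 lies within the span of Sema5b (chromosome 16, 35541230 to 35664818, NCBI m37) and was 298 and 326 FPKM, and because strand was not used, reads of overlapping genes cannot be told apart. It was the one overlapping locus of at least 1 FPKM found among the members. Sema5a, the other class 5 member, was 4.17 and 2.57 FPKM (-0.70).

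All 4 class 6 semaphorins, ligands of A plexins that also signal in reverse, were at least 2-fold lower under every scaling tried. Sema6d, a ligand of Plxna1, was 24.6 FPKM in Hb9 control and 2.15 FPKM in A2 SMA MNs (11.5-fold lower, log2 ratio -3.52). Sema6a, a ligand of Plxna2 and Plxna4 known for keeping motor neuron cell bodies inside the spinal cord, was 21.8 and 2.68 FPKM (-3.02). Sema6c, the most abundant of the class, was 52.9 and 13.5 FPKM (-1.97). The 4 genes together went from 107 to 21.2 FPKM. Sema6b was 7.61 and 2.83 FPKM (-1.43). Sema7a, the only class 7 member and the one semaphorin held by a GPI anchor, was 4.50 and 2.68 FPKM (-0.75).

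**Figure D2:**
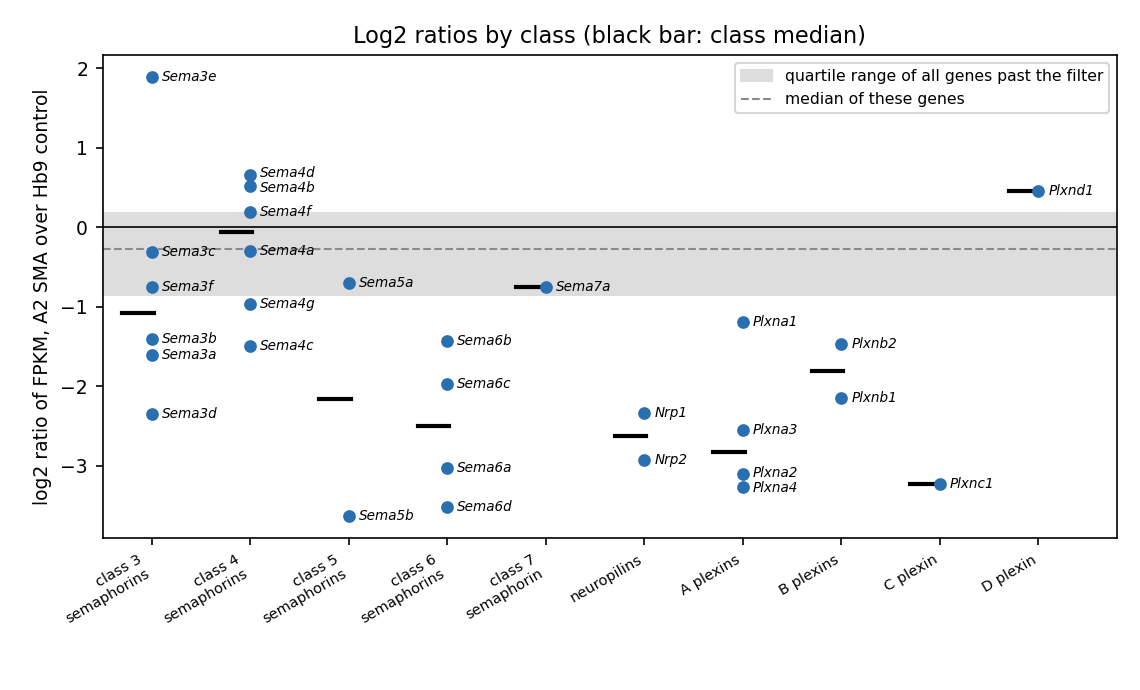
Log2 ratio of A2 SMA over Hb9 control FPKM for the 29 members that passed the filter, by class, with 1 point per gene, a black bar for the class median and a grey band for the range between the quartiles of all genes that passed. Class 6 semaphorins, neuropilins and A and B plexins lie below the band, and class 4 semaphorins lie around it with a median of -0.055 whose sign depended on scaling.

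The make-up of the semaphorin pool differed between genotypes as well as its size. FPKM values are per length, so shares of the summed FPKM can be compared between genes. In Hb9 control MNs, Sema5b, Sema4c and Sema6c held ranks 1 to 3 and made up 55.9% of the semaphorin sum, and in A2 SMA MNs the same 3 genes made up 29.2%. Sema4d and Sema4b, ranked 7 and 8 in Hb9 control MNs, ranked 1 and 2 in A2 SMA MNs, and their joint share was 9.96% and 36.4%. Class 4 held 37.04% of the sum in Hb9 control and 65.1% in A2 SMA MNs, whereas classes 5 and 6 together held 53.9% and 20.5%. Shares do not depend on scaling between genotypes.

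Both neuropilins were lower in A2 SMA MNs. Nrp2, the co-receptor for Sema3f, was 59.5 FPKM in Hb9 control and 7.81 FPKM in A2 SMA MNs (7.61-fold lower, log2 ratio -2.93), in a row marked FAIL. Nrp1, the co-receptor for Sema3a, was 12.5 and 2.48 FPKM (5.04-fold lower, -2.33), in a row that also names the microRNA gene Mir1903. Nrp2 was the more abundant of the pair in both genotypes.

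All 4 A plexins, the signal-transducing partners of neuropilins and receptors of class 6 semaphorins, were at least 2-fold lower. Plxna4 was 4.72 FPKM in Hb9 control and 0.488 FPKM in A2 SMA MNs (log2 ratio -3.27), and it passed the filter only through the former. Its ratio was -1.94 with a pseudocount of 1 FPKM. Plxna2 was 41.7 and 4.85 FPKM (-3.10), or -2.87 with that pseudocount. Plxna3, the partner of Nrp2 in Sema3f signaling, was 65.2 and 11.1 FPKM (-2.55). Plxna2 and Plxna3 were more than 4-fold apart with and without the pseudocount. Plxna1 was 79.5 and 34.8 FPKM (-1.19), and its ratio was -0.91 relative to the median gene, no longer 2-fold.

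Of the B plexins, receptors of class 4 semaphorins, Plxnb1 was 40.3 and 9.10 FPKM (-2.15, in a row marked FAIL) and Plxnb2, a plexin with wide expression in progenitors, was 99.0 and 35.6 FPKM (-1.47). Plxnb3 was at 0.1697 and 0.1708 FPKM, below the filter. Plxnc1, the receptor of Sema7a, was 4.20 and 0.449 FPKM (-3.23). Its ratio was -1.84 with a pseudocount of 1 FPKM, no longer 4-fold. Plxnd1 stood apart from the other receptors at 9.80 FPKM in Hb9 control and 13.5 FPKM in A2 SMA MNs (1.37-fold higher, 0.46). Every scaling tried raised the ratios, so Plxnd1 had to stay higher. It is the receptor of Sema3e and is best known in endothelial cells. Endothelial markers were mostly higher: of 7 markers, all above 0 in both genotypes, 5 passed the filter, and 4 of these were higher in A2 SMA MNs with a list median of 0.92. Pecam1 was 21.8 and 68.7 FPKM, and Cdh5, at 0.796 and 2.33 FPKM, passed only through A2 SMA MNs. Tek was 1.34 and 2.54 FPKM and Esam was 3.75 and 6.29 FPKM, whereas Tie1 was 4.03 and 3.45 FPKM. At least 2-fold higher were 2 of the 5, beside 6.14% of all genes. Centred on the median gene, 5 of 5 were higher and 4 at least 2-fold, beside 9.53%. The filter fixed the direction of Cdh5, and without it 3 of 4 were higher before centring, 1 of them at least 2-fold. Below the filter, Erg was 0.380 and 1.49 FPKM and Emcn was 0.900 and 0.423 FPKM. The endothelial markers summed to 33.0 and 85.2 FPKM, most of it Pecam1. The pluripotency markers were higher as well, from 223 to 1488 FPKM in sum. The part of either marker list in the values of Sema3e and Plxnd1 was not tested. Plxnb2 and Plxna1 were the most abundant plexins in both genotypes and held 51.8% and 64.0% of the plexin sum. Plxnd1 held 2.84% in Hb9 control and 12.2% in A2 SMA MNs, and its rank among the 9 plexins went from 6 to 3.

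**Figure D3:**
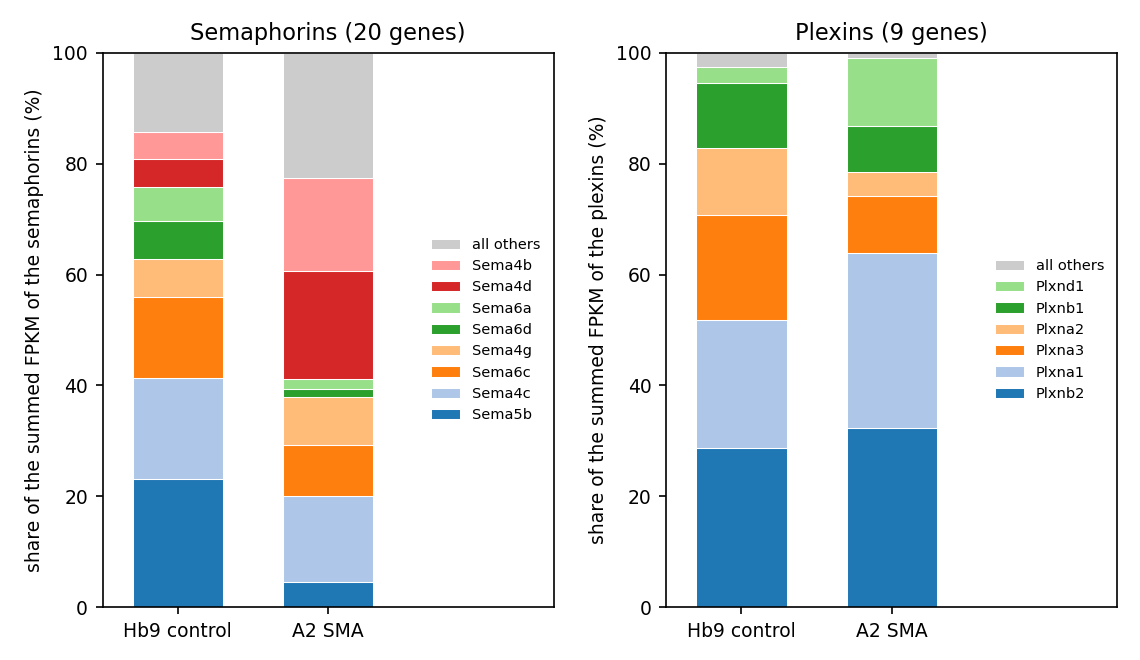
Stacked bars of the share of the summed FPKM in percent, for the 20 semaphorins (left) and the 9 plexins (right), in Hb9 control and A2 SMA MNs, with genes under 5% in both genotypes pooled as all others. Sema5b takes the largest semaphorin share in Hb9 control MNs (23.2%) and Sema4d in A2 SMA MNs (19.6%), while Plxnb2 is the largest plexin share in both.

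Ligands and their receptors were then set side by side for 18 pairs drawn from textbook knowledge, 16 of which had both members past the filter. Of single genes, 66.1% were lower and 21.1% at least 2-fold lower over the whole table. In 13 pairs both were lower in A2 SMA MNs, and in 7 of these both were at least 2-fold lower: Sema3a with Nrp1 and with Plxna4, Sema4c with Plxnb2, Sema6a with Plxna2 and with Plxna4, Sema6b with Plxna4, and Sema6d with Plxna1. The pair of Sema3e and Plxnd1 was the 1 pair with both higher (log2 ratios 1.89 and 0.46). Sema4d and Plxnb1 were opposed, the ligand at 0.65 and the receptor at -2.15, and so were Sema3c and Plxnd1 at -0.32 and 0.46. Of the pairs with both lower, 5 hold Sema3a, Plxna4 or Plxnc1, which passed the filter only through Hb9 control MNs and so had to be lower, and 4 of the 7 pairs with both at least 2-fold lower are among them. Without such pairs, both were lower in 8 of 11 and at least 2-fold lower in 3. Pairs share members, so these counts are not independent, and the Sema3c pairs depend on scaling as the gene itself does.

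**Figure D4:**
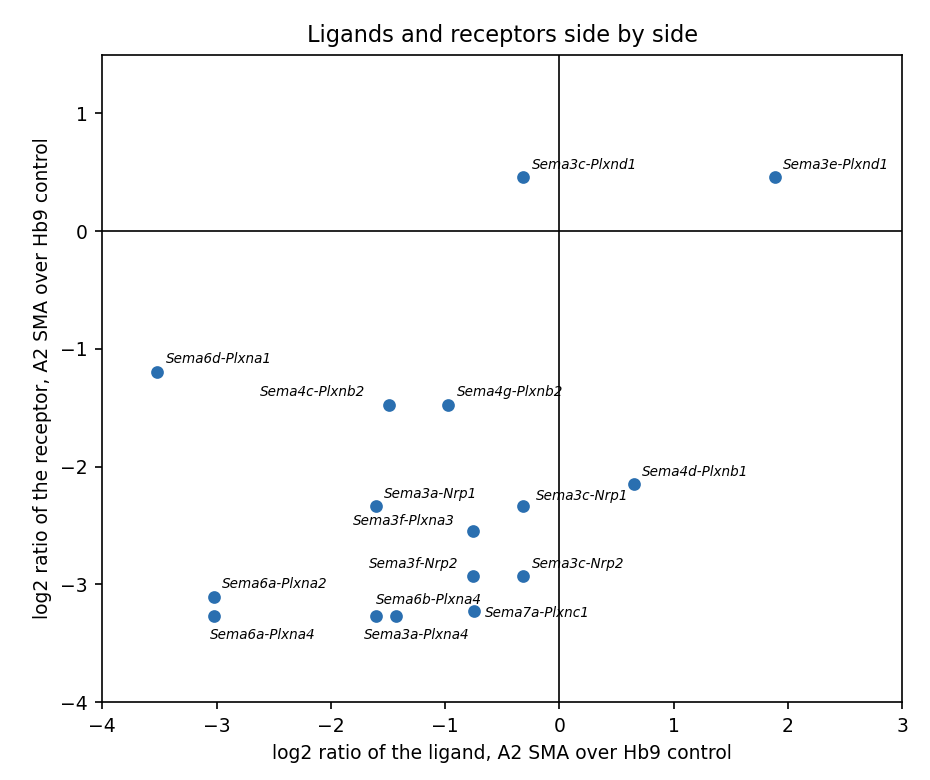
Log2 ratio of the receptor against that of the ligand, A2 SMA over Hb9 control, for the 16 pairs with both members past the filter, 1 point per pair. Of these pairs 13 lie at the lower left, Sema3e with Plxnd1 is alone at the upper right, Sema4d with Plxnb1 is at the lower right, and pairs with Sema3c (-0.32) lie near the vertical line, which that gene crosses after upper quartile scaling.

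Other genes of the pathway were taken from lists of co-receptors, VEGF ligands and intracellular effectors, with 54 genes in the table, of which 51 passed the filter. Of these, 43 were lower (84.3%, beside 66.1% of all genes) and 8 higher. At least 2-fold lower were 16 (31.4%, beside 21.1% of all genes), or 13 to 14 under the scalings tried, and 1 was at least 2-fold higher (1.96%, beside 6.14%). Their median log2 ratio was -0.57. Relative to the median gene, 38 were lower and the median was -0.29. These lists hold genes with many roles outside semaphorin signaling.

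Of the co-receptors and alternative receptors, 7 of the 8 that passed the filter were lower, beside 66.1% of all genes. At least 2-fold lower were 4, beside 21.1% of all genes. L1cam, which associates with Nrp1, was 133 FPKM in Hb9 control and 51.9 FPKM in A2 SMA MNs (log2 ratio -1.35), in a row shared with Arhgap4 and Naa10. Nrcam, which associates with Nrp2, was 36.7 and 3.40 FPKM (-3.43). Chl1 was 6.61 and 0.3395 FPKM (-4.28) and passed only through Hb9 control MNs, and Cntn2 was 79.8 and 4.36 FPKM (-4.19, in a row marked FAIL). These were the 4 at least 2-fold lower. Without Chl1, whose direction the filter fixed, 6 of 7 were lower and 3 of 7 at least 2-fold lower. Itgb1, the integrin subunit that serves as a receptor of Sema7a, was 198 and 130 FPKM (-0.61). Ptk7, a kinase-dead receptor, was 60.8 and 54.1 FPKM (-0.17, in a row marked FAIL), a ratio above that of the median gene. Of the VEGF ligands of neuropilins, Vegfa was 228 and 114 FPKM (-0.998, just under 2-fold), and Figf was 0.797 and 1.79 FPKM (1.17), the 1 gene of these lists at least 2-fold higher, which passed the filter only through A2 SMA MNs and so had to be higher.

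The collapsin response mediator proteins (CRMPs), which carry the Sema3a signal to microtubules, were lower as a group. Dpysl3 was 202 FPKM in Hb9 control and 22.6 FPKM in A2 SMA MNs (log2 ratio -3.16). Crmp1 was 190 and 22.5 FPKM (-3.08). Dpysl5 was 115 and 16.5 FPKM (-2.81, in a row marked FAIL). All 5 CRMP genes were more than 4-fold lower, where 8.18% of all genes were at least 4-fold lower. Dpysl4 was 99.5 and 7.98 FPKM (-3.64) and Dpysl2 was 34.4 and 4.74 FPKM (-2.86). CRMPs are abundant in young neurons, and the neuronal markers were also lower, from 1048 to 121 FPKM in sum. The part of this in the CRMP values was not tested. The 5 MICAL genes of the same list, whose founding members oxidize actin downstream of plexins, were nearer to the median gene. At least 2-fold lower was 1 of them, beside 21.1% of all genes, and Mical3 was 32.3 and 34.0 FPKM (0.07).

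The enzymes and switches below the receptors differed less. Of 9 kinases, 3 were at least 2-fold lower, where the share of all genes was 21.1%, and 2 were under each scaling tried, Gsk3b (72.1 and 35.1 FPKM, -1.04) being the one lost. Their median log2 ratio was -0.71. The widest gap among them was in Cdk5r1, the neuronal activator of Cdk5, at 23.2 and 2.16 FPKM (-3.43, in a row marked FAIL). Fyn, a kinase that acts below A plexins, was 106 and 39.4 FPKM (-1.43), and Limk2, which phosphorylates cofilin, was 155 and 95.0 FPKM (-0.71). Of 11 GTPases, 3 were at least 2-fold lower, again beside 21.1% of all genes, and 2 were under each scaling tried. They belong to the Rnd subfamily that binds plexins: Rnd3 was 93.3 and 9.92 FPKM (-3.23), Rnd2 was 42.4 and 11.5 FPKM (-1.88, in a row marked FAIL) and Rnd1, the one lost under scaling, was 3.86 and 1.87 FPKM (-1.04). Rap1b, a substrate of the plexin GTPase-activating domain, was 91.9 and 83.3 FPKM (-0.14), and Rac1 was 81.5 and 72.1 FPKM (-0.18). The GTPase median of -0.30 was 0.03 after upper quartile scaling. Of 8 exchange factors and adaptors none was at least 2-fold apart, and Gipc1, which binds the tail of Nrp1, was 98.1 and 68.4 FPKM (-0.52).

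**Figure D5:**
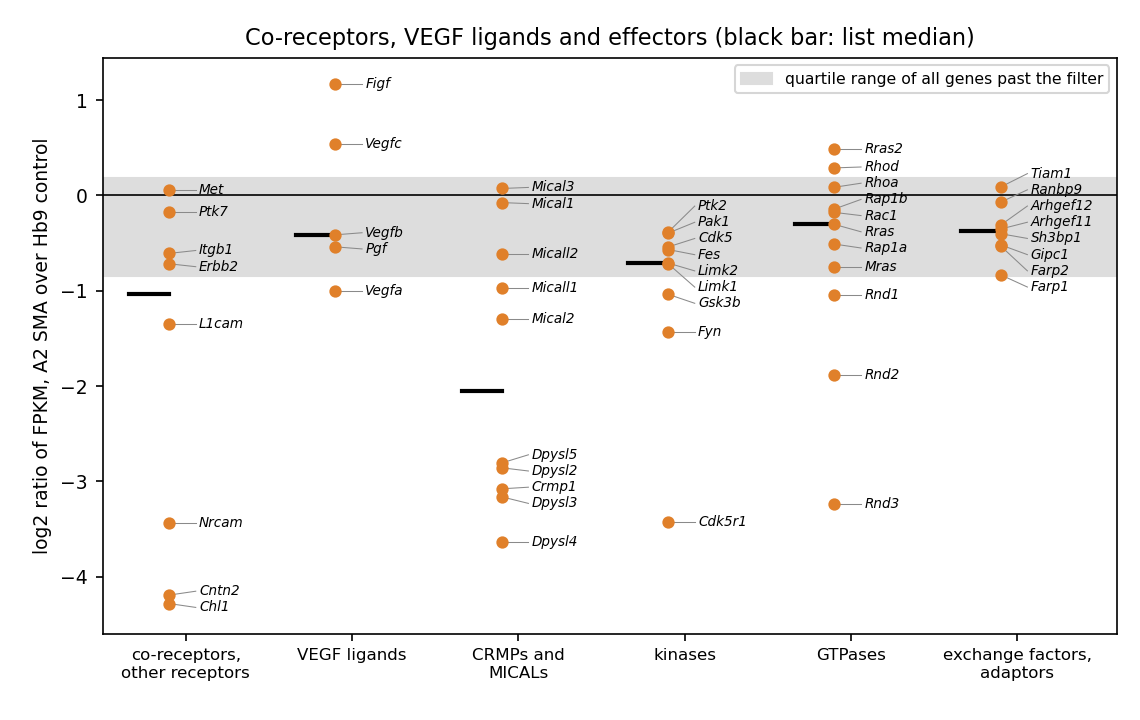
Log2 ratio of A2 SMA over Hb9 control FPKM for the 51 pathway genes that passed the filter, by list, with 1 point per gene, a black bar for the list median and a grey band for the range between the quartiles of all genes that passed. The 5 CRMP genes lie between -3.64 and -2.81, the exchange factors and adaptors all lie within the band, and the GTPase median of -0.30 is 0.03 after upper quartile scaling.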

How the data were processed

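RNA from GFP-positive cells (3 samples per genotype) was sequenced as 50-cycle single-end reads, trimmed with cutadapt, checked with FastQC 0.10.1, aligned to NCBI mouse build 37 with TopHat2 2.04 and quantified with Cufflinks and Cuffdiff, per the study's methods and the submitters' processing notes. The authors deposited FPKM values (fragments scaled to gene length and to mapped depth), 1 value per gene and genotype, pooled over samples. FPKM keeps no read counts, so no count test was run, and no per-sample columns were left unused (0). The table's own fold change, test statistic, p and q columns compare the genotypes and were not used. Rows that Cuffdiff marked FAIL (2747) were kept.

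Per symbol, the row with the highest FPKM was taken, and log2 ratios of A2 SMA over Hb9 control were formed without a pseudocount for genes with a mean of at least 1 FPKM and above 0 in both, in Python 3.11.15 (numpy 2.4.6, pandas 2.3.3, matplotlib 3.10.9). A gene was called at 2-fold. The ratio and 2-fold call steps were tested on simulated data, and the row choice on a small made-up example. The filter step was not tested in this way. Every member was named. Of other lists, at most the 4 genes highest in FPKM were named, with those at least 4-fold apart at 5 FPKM or more, plus Smn1 and Mnx1. Cdh5, Erg, Emcn, Ptprc, Lyz2, Figf, Mical3, Rnd1, Rnd2 and the genes between the chromosome 5 semaphorins were named after their values were seen. Members and lists were chosen with earlier results of these data known. Tubb3, Map2, Sox1 and Slc18a3 were not analysed here. Alternatives were pseudocounts, filters, 3 scalings between genotypes, row choice and the fold that counts. Start windows came from RefSeq (GRCm38.p6) by symbol, and no coordinates were converted between builds.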

Additional observations from a re-analysis of the deposited data

How the results depend on the processing

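The count of members at least 2-fold lower stayed within 1.5 times the value of 18 under every pseudocount, filter, scaling and row choice tried. No member at least 2-fold apart changed sign, but none of these settings could have reversed such a member. At a 4-fold limit 11 members were lower and 0 higher. In alternatives chosen after seeing the data, the 4-fold count was 7 with a pseudocount of 1 FPKM and 8 without members above 1 FPKM in Hb9 control MNs alone. At 1.5-fold 2 were higher, the added one being Sema4d. With a mean of at least 5 FPKM, 13 of 18 members were lower and 0 higher, because Sema3e did not pass. The median log2 ratio of the members was -1.17 with a pseudocount of 1 FPKM, -1.73 with a mean of at least 5 FPKM, -1.20 centred on the median gene, -1.14 after upper quartile scaling, -1.33 on reference genes (Gusb, Pgk1 and Rpl13a), -1.45 without rows of several symbols and -1.41 without rows marked FAIL. Over all these settings the plexin median lay between -2.55 and -1.81 and the semaphorin median between -1.46 and -0.64. Plxna1 was no longer 2-fold lower when centred on the median gene (-0.91) or after upper quartile scaling (-0.86), nor Sema3a with a pseudocount of 1 FPKM (-0.96). Sema3c and Sema4a changed sign after upper quartile scaling, at 0.02 and 0.04. No paired analysis was possible because the table holds 1 value per genotype, and leaving out each replicate was not run for the same reason. The table gives no reads behind single values.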
